A study of Mus musculus with 16 samples.

Results

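The odorant receptor genes of mouse chromosome 9 were followed in sorted cells of the olfactory mucosa. Members were the probes whose identifier places them on chromosome 9 and whose symbol is Olfr followed by digits only. The rule met 129 receptors, left out 4 by number, and kept 125 of the 19505 genes measured. The other 966 receptor genes on the array served for comparison.

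Odorant receptors are G protein-coupled receptors in the cilia of olfactory sensory neurons, and each mature neuron expresses a single receptor gene chosen from the whole repertoire. An odorant that binds the receptor acts through the G protein Gnal, the adenylyl cyclase Adcy3 and the cyclic nucleotide channel that holds Cnga2. Because the neurons differ in the receptor they express, the receptor RNA in a sorted fraction depends in part on which neurons were collected there.

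The study exposed 24 mice of both sexes, aged 7 to 12 weeks, to an indole/ionone odorant or to filtered air as vehicle. Mice stayed singly in clean air chambers for 40 h at 3.1 L/min, and from 26 h received a 10 s pulse every 20 min. The mucosa of 3 mice was pooled, dissociated and sorted into GFP+ and GFP- cells, and 50 to 100 ng of RNA from each went to an Affymetrix array. This gave 4 odor pools and 4 vehicle pools, with 4 samples each of odor GFP+, odor GFP-, vehicle GFP+ and vehicle GFP-, 16 in all. The labels do not name the reporter, strain or alleles. In the published Kentucky assay, GFP is driven from the locus of S100a5, a calcium-binding protein whose RNA increases when a neuron is active, and mice of both arms carry it.

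Values are log2 levels, and differences below are differences of log2 levels. No array duplicated another, and within a group any pair of arrays had a correlation between 0.974 and 0.987 over all 28846 probes. The GFP- array of odor pool 3 stood apart on the second principal component, at 90.4 against 27.6 for the next highest array. Both pools numbered 3 also had low levels of 3 Y-linked genes, 2.76 to 4.09 against 6.42 to 12.09 in the other pools. Counts of receptors without both of these pools are given beside the main ones. The GFP+ minus GFP- difference of S100a5 was 1.31 ± 0.17 (SE, limma adjusted p = 1.84e-04) in odor pools and 1.27 ± 0.17 (adjusted p = 2.28e-04) in vehicle pools. Omp, which marks mature sensory neurons, differed by 0.06 and 0.09 between the fractions and was not called. Its group means were 18.40 to 18.50, against 14.00 for the highest receptor mean in odor GFP+ samples. Whether the array still resolves differences at so high a level was not tested. In these bulk samples, fewer neurons of a type and less receptor RNA per neuron cannot be told apart.

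Receptors with large RNA differences between the fractions are shown here by the 250 bases before their annotated start (RefSeq, GRCm38.p6, written 5′ to 3′ on the gene's strand). They are the lowest and the highest pair among members called in both arms whose window does not begin at a start codon. Capitals mark matches on either strand to the motifs named next. Olfr77 lies at chr9:19916979-19917228 on the plus strand, Olfr878 at chr9:37918298-37918547 on the plus strand, Olfr876 at chr9:37803639-37803888 on the plus strand and Olfr860 at chr9:19849748-19849997 on the minus strand.
Olfr77: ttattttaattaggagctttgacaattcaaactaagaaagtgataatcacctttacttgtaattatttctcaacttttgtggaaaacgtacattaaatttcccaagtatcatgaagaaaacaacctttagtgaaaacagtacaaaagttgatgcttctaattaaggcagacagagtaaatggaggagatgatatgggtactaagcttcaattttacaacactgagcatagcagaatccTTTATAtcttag
Olfr878: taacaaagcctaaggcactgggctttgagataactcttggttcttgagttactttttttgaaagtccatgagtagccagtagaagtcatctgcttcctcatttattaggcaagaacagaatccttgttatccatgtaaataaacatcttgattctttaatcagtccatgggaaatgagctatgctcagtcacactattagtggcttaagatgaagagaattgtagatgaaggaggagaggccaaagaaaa
Olfr876: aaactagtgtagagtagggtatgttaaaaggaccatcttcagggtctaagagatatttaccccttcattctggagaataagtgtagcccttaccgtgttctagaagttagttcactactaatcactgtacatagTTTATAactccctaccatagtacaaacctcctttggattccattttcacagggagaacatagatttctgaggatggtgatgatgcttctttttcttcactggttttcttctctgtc
Olfr860: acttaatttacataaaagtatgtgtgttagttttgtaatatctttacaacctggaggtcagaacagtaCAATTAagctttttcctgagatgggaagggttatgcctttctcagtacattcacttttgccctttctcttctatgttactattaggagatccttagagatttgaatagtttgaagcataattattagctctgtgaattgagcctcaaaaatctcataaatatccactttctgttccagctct
The capitals in Olfr77 and Olfr876 are a TATA box read on the opposite strand, and those in Olfr860 a homeodomain site read on the opposite strand. No match to the motifs lay in the Olfr878 window.

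Of the 4 motifs searched on both strands, the homeodomain site was spelled TAATTG. A variant of the homeodomain site was spelled TAATGA, which cannot begin at the same base of the same strand. The site of Ebf factors was spelled CCCNNGGG. The TATA box was spelled TATAAA. Matches of different motifs were counted separately. The promoter table held 105 windows for 104 of the 125 members. Of these, 67 began at a start codon, so their bases lie upstream of translation rather than of transcription. Among the other 38 windows, the homeodomain site was in 28.9%, its variant in 36.8%, the Ebf site in 5.26% and the TATA box in 34.2%. The same motifs were in 25.4%, 30.4%, 7.59% and 30.8% of 224 windows of other receptors, and in 6.8%, 8.19%, 12.2% and 11.4% of all 30936 such windows. The median GC content was 34.6% in the chromosome 9 windows, 36.8% in those of other receptors and 52.8% in all windows. A match is a description of the letters and no evidence of binding.

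The first comparison asked which receptors were more or less abundant in the GFP+ fraction than in the GFP- fraction of the same pool. In odor pools, GFP+ cells had more RNA of 67 of the 125 receptors and less of 24, and 34 were not called. The test was limma on within-pool differences with Benjamini-Hochberg adjustment over all genes, called at an adjusted p under 0.05. Over all genes the same rule called 18.6%, with 7.96% higher and 10.6% lower. In vehicle pools, 63 receptors were higher, 26 lower and 36 not called, against 19.7% of all genes called, 8.86% higher and 10.8% lower. The median difference over the 125 receptors was 0.95 in odor pools and 0.93 in vehicle pools. It was 0.38 and 0.33 over the 966 other receptors, and 0.11 in both arms over all genes. Of the other receptors, 404 were higher and 227 lower in odor pools, and 407 were higher and 253 lower in vehicle pools. Without both pools numbered 3, 86 chromosome 9 receptors were called in odor pools and 86 in vehicle pools.

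The calls were alike in both arms. GFP+ cells had more RNA of 62 receptors in both arms and less RNA of 24 in both arms. For all genes, the shares called are given above for each arm alone and not for both arms together. A further 31 receptors were called in neither arm, 8 in a single arm, and 0 in opposite directions. Among the 62, the fitted mean difference of both arms had a median of 1.78, and 1.72 with the lower bounds explained below in place of fitted values at background. Among the 24, the median was -2.55, and -2.19 with the bounds. The GFP+ and GFP- levels did not overlap for 76 receptors in odor pools and 83 in vehicle pools, against 21.6% and 21.9% of all genes. Within pools, 61 of the 62 were higher in GFP+ cells in all 8 pools, and 22 of the 24 were lower in all 8. The calls were made on these same differences, so the agreement of pools describes the called receptors and adds no support.

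**Figure D1:**
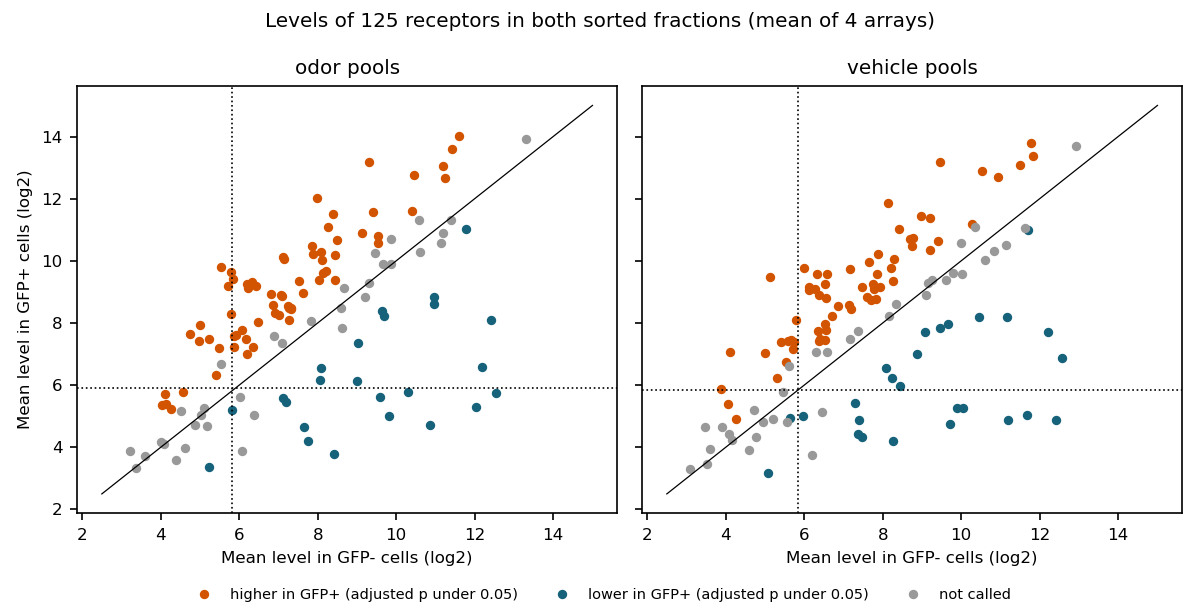
Mean log2 level in GFP+ cells (vertical) against GFP- cells (horizontal) for the 125 receptors, with odor pools left and vehicle pools right. Orange points were called higher in GFP+ cells (67 in odor and 63 in vehicle pools), blue points lower (24 and 26) and grey points not called. Dotted lines mark the background probes, the solid line equality.

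Olfr849, of the MOR151 family, had levels of 12.09, 11.57, 11.82 and 12.65 in odor GFP+ samples, against 7.98, 8.33, 7.10 and 8.50 in odor GFP- samples. In vehicle pools it had 11.85, 11.70, 11.78 and 12.11 in GFP+ samples, against 7.20, 8.51, 8.73 and 8.10 in GFP- samples. Every GFP+ value lay above every GFP- value in both arms, and all 16 arrays were over background. The difference was 4.06 ± 0.28 (SE, adjusted p = 8.39e-07) in odor pools and 3.72 ± 0.28 (adjusted p = 1.82e-06) in vehicle pools. No ligand is named here for this or the other receptors, since the files give none.

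Olfr958, of the MOR224 family, had levels of 12.92, 13.41, 13.29 and 13.09 in odor GFP+ samples, against 9.13, 9.65, 8.81 and 9.63 in odor GFP- samples. In vehicle pools it had 13.76, 13.58, 12.25 and 13.13 in GFP+ samples, against 9.56, 9.29, 9.50 and 9.52 in GFP- samples. Again no GFP- value reached a GFP+ value. The difference was 3.87 ± 0.25 (adjusted p = 4.71e-07) in odor pools and 3.72 ± 0.25 (adjusted p = 6.82e-07) in vehicle pools. Olfr860, whose upstream bases are printed above, had 9.72, 9.46, 9.75 and 10.24 in odor GFP+ samples, against 5.77, 5.62, 5.79 and 4.94 in odor GFP- samples. It had 9.58, 9.72, 9.37 and 9.65 in vehicle GFP+ samples, against 6.53, 5.46, 6.51 and 6.83 in vehicle GFP- samples. Its fractions did not overlap in either arm, and the differences were 4.26 ± 0.28 (adjusted p = 6.15e-07) and 3.25 ± 0.28 (adjusted p = 5.91e-06). Only 1 of 4 odor GFP- arrays and 3 of 4 vehicle GFP- arrays were over background, so these sizes rest in part on levels at background.

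Olfr854, of the MOR147 family, had 9.78, 9.59, 8.90 and 10.35 in odor GFP+ samples, against 6.12, 6.35, 4.16 and 6.57 in odor GFP- samples. It had 9.21, 9.75, 9.19 and 9.81 in vehicle GFP+ samples, against 3.88, 4.94, 6.11 and 5.55 in vehicle GFP- samples. The fractions did not overlap, and in odor pools the SD was 0.60 in GFP+ samples and 1.11 in GFP- samples. The differences were 3.85 ± 0.32 (adjusted p = 4.64e-06) and 4.37 ± 0.32 (adjusted p = 1.69e-06). For Olfr854, 3 of 4 odor GFP- arrays and only 1 of 4 vehicle GFP- arrays were over background, so the same limit applies. The remaining receptors among the 10 with the largest positive differences were Olfr981, Olfr970, Olfr145, Olfr934, Olfr905 and Olfr887. Olfr905 was the steadiest of these, at 3.06 ± 0.14 (adjusted p = 4.64e-08) in odor pools and 2.81 ± 0.14 (adjusted p = 9.08e-08) in vehicle pools. Olfr145, also named K21, differed by 3.03 ± 0.23 (adjusted p = 2.23e-06) and 2.99 ± 0.23 (adjusted p = 2.51e-06). Olfr887 was at or below background on all GFP- arrays, and was at least 3.57-fold higher in GFP+ cells in odor pools (adjusted p = 5.36e-04) and at least 2.32-fold higher in vehicle pools (adjusted p = 4.54e-04).

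Background here is the median of 23 probes without a genomic target on the same array, 5.63 to 6.05 over the 16 arrays. A receptor at or below it on all 4 arrays of a group has only an upper limit there, so its fold is given as a lower bound. Such bounds applied to 12 receptors in odor pools and 15 in vehicle pools. With them in place of the fitted values, the median over the 125 was 0.95 in odor pools and 0.79 in vehicle pools. In all, 67 receptors were over background on all 16 arrays and 9 on none.

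The strongest depletion was that of Olfr77, of the MOR143 family. It had 5.26, 6.23, 5.09 and 6.42 in odor GFP+ samples, against 12.70, 12.58, 11.70 and 13.22 in odor GFP- samples. It had 4.55, 5.10, 5.09 and 4.81 in vehicle GFP+ samples, against 12.80, 12.12, 12.08 and 12.66 in vehicle GFP- samples. The fractions were far apart in every pool, and 2 of the 4 odor GFP+ arrays and none of the vehicle GFP+ arrays were over background. The difference in odor pools was -6.80 ± 0.23 (adjusted p = 5.67e-09). In vehicle pools the receptor was at least 95.5-fold lower in GFP+ cells (adjusted p = 2.71e-09).

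Olfr878, of the MOR163 family, had 4.98, 6.18, 4.79 and 5.28 in odor GFP+ samples, against 12.11, 11.86, 11.38 and 12.83 in odor GFP- samples. It had 4.96, 4.15, 5.67 and 5.35 in vehicle GFP+ samples, against 12.28, 11.64, 10.84 and 11.99 in vehicle GFP- samples. A single GFP+ array of the 8, that of odor pool 2, was over background. The receptor was at least 57.7-fold lower in vehicle GFP+ cells (adjusted p = 1.64e-07), and its difference in odor pools was -6.73 ± 0.37 (adjusted p = 1.45e-07).

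Olfr969, of the MOR171 family, had 4.23, 4.49, 5.32 and 4.89 in odor GFP+ samples, against 9.92, 11.31, 10.61 and 11.58 in odor GFP- samples. It had 5.09, 5.14, 5.22 and 4.05 in vehicle GFP+ samples, against 11.31, 11.59, 10.52 and 11.39 in vehicle GFP- samples. No GFP+ array was over background. It was at least 31.1-fold lower in GFP+ cells in odor pools (adjusted p = 9.22e-08) and at least 41.2-fold lower in vehicle pools (adjusted p = 7.28e-08). Olfr972, of the same family, was over background on 7 of the 8 GFP+ arrays, and still differed by -5.62 ± 0.36 (adjusted p = 4.87e-07) in odor pools and -5.70 ± 0.36 (adjusted p = 4.42e-07) in vehicle pools.

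The other receptors of the 10 largest depletions were Olfr884, Olfr829, Olfr957, Olfr250, Olfr18 and Olfr943. Olfr884 was at least 15.3-fold lower in odor GFP+ cells (adjusted p = 2.39e-08) and differed by -4.77 ± 0.21 in vehicle pools (adjusted p = 2.68e-08). Olfr829 differed by -4.51 ± 0.34 in odor pools (adjusted p = 1.94e-06) and was at least 16.7-fold lower in vehicle pools (adjusted p = 1.62e-06). Olfr884 was over background on only 1 of 4 vehicle GFP+ arrays, and Olfr829 on 2 of 4 odor GFP+ arrays. The sizes of these 2 fitted differences therefore rest in part on levels at background. Olfr829 and Olfr854 belong to the same MOR147 family and moved in opposite directions. Olfr250 had the widest error of the 10, at -4.30 ± 0.56 (adjusted p = 1.68e-04) in odor pools and -4.49 ± 0.56 (adjusted p = 1.19e-04) in vehicle pools. Its differences in pool 2 of each arm were -6.33 and -6.85, against -4.04 to -3.31 in the other odor pools and -3.76 to -3.62 in the other vehicle pools. Olfr18 was at least 5.74-fold lower in GFP+ cells in odor pools (adjusted p = 2.58e-06) and at least 5.37-fold lower in vehicle pools (adjusted p = 7.73e-06), and Olfr943 at least 3.64-fold (adjusted p = 1.16e-06) and at least 3.11-fold (adjusted p = 3.36e-06).

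**Figure D2:**
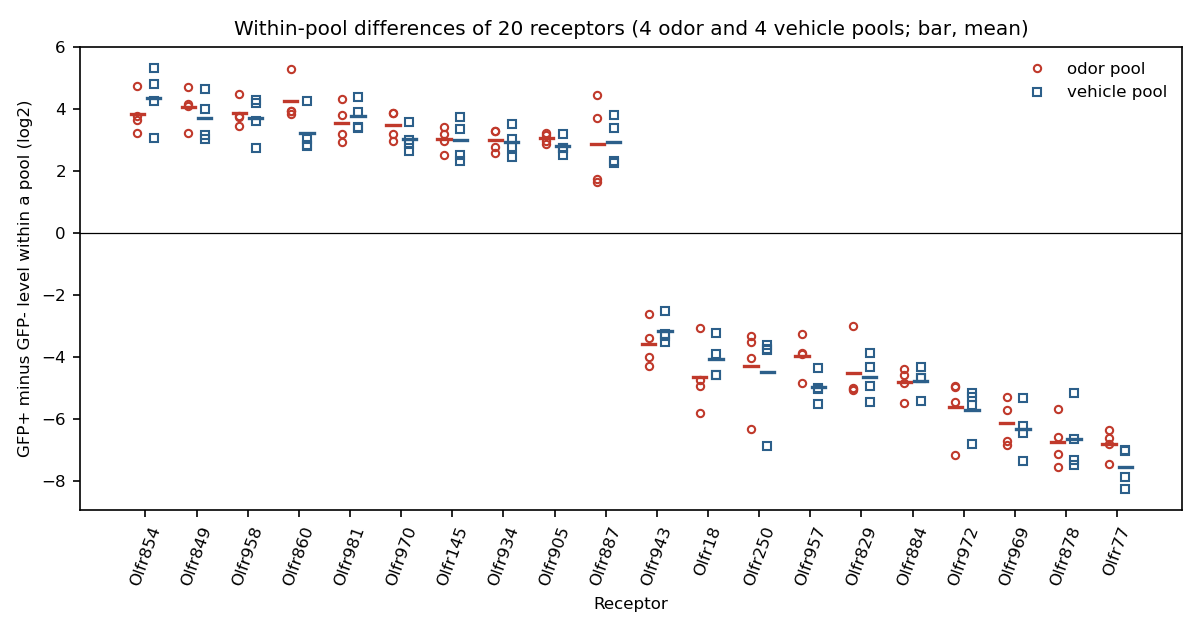
GFP+ minus GFP- log2 difference in each of the 4 odor pools (red circles) and 4 vehicle pools (blue squares) for the 10 receptors with the largest positive and the 10 with the largest negative differences, bars showing means. Each of the 20 receptors, picked for the size of these differences, lies on 1 side of 0 in all 8 pools. Olfr250 has a single pool far below the rest in each arm.

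Some receptors well over background were not called. Olfr24 of the MOR132 family had 13.52, 13.85, 13.99 and 14.35 in odor GFP+ samples, against 13.15, 13.79, 11.94 and 14.35 in odor GFP- samples. The fractions overlapped in both arms, and the differences of 0.62 ± 0.32 (adjusted p = 0.216) and 0.79 ± 0.32 (adjusted p = 0.117) were not called. Of the 31 receptors called in neither arm, 16 were over background on all 16 arrays and 7 on none. The 8 called in a single arm were Olfr830, Olfr850, Olfr926, Olfr937 and Olfr229 in odor pools and Olfr885, Olfr902 and Olfr952 in vehicle pools. The test of the arms against each other called 0 of these 8. Of the 8, Olfr926 and Olfr952 were over background on none of the 16 arrays. Olfr830 and Olfr850 were over it on 1 odor GFP+ array each, and Olfr885 on 1 vehicle GFP- array. The calls of these receptors therefore compare levels at background.

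Genes of other cell types also differed between the fractions. All 6 neutrophil genes were lower in GFP+ cells, with median differences of -9.74 in odor and -9.51 in vehicle pools. Their summed level ran between 8.05 and 9.91 in odor GFP+ samples, against 18.04 to 19.32 in odor GFP- samples. It ran between 8.30 and 9.52 in vehicle GFP+ samples, against 17.95 to 19.39 in vehicle GFP- samples. Of these genes, Mmp8 was at or below background on all GFP+ arrays. Immature neuron genes were lower for 4 of 6 (medians -3.09 and -3.43), basal and dividing cell genes for 4 of 6 measured (-1.17 and -1.06), and sustentacular cell genes for 3 of 5 (-1.34 and -1.43). Macrophage genes were lower for 3 of 5 in odor and 5 of 5 in vehicle pools. Respiratory ciliated cell genes were higher for 2 of 3 measured. Mature neuron genes were higher for 1 of 10, with medians of 0.19 and 0.25. Some of these genes were at background. Of the basal genes, Neurog1, which was called lower, and Krt5 and Trp63, not called, were at or below it on every array. So were Cngb1 of the mature neuron genes and Dnah5 of the ciliated cell genes. Mki67, Kit and Nhlh1, all called lower, were at or below it on all GFP+ arrays. The part of these cell types in the receptor differences was not tested.

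Other genes of receptor choice and trafficking were compared between the fractions. The 22 such genes included the regulators Lhx2, Ldb1 and Ebf1 and the chaperone Rtp1. By limma, 0 were higher and 1 was lower in both arms, against 18.6% of all genes called in odor pools and 19.7% in vehicle pools. The lower gene was Lbr, a nuclear envelope protein, at -1.62 ± 0.18 (adjusted p = 5.35e-05) in odor pools and -1.71 ± 0.18 (adjusted p = 3.38e-05) in vehicle pools. The medians of the list were 0.09 and 0.14. Genes that mark the dorsal zone (Nqo1, Acsm4) had medians of 0.01 and -0.05, and those that mark the ventral zone (Ncam2, Nrp2, Nfia, Nfib, Nfix) had 0.10 and 0.19, with 0 of 2 and 0 of 5 called.

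Receptor families were read from the MOR names that RefSeq lists as synonyms, which group mouse receptors by sequence. This grouping was chosen after the values were seen and is descriptive. The 125 receptors fell into 28 families, of which 8 had 5 or more members and held 87 receptors. In MOR224, all 10 members were called higher in odor pools and in vehicle pools, with mean differences between 1.12 for Olfr976 and 3.79 for Olfr958. In MOR223, all 5 were higher, between 1.38 for Olfr979 and 3.68 for Olfr981. MOR145 had no higher member: 3 of 6 were lower in both arms, Olfr18 by the bounds above, Olfr868 at -2.67 and Olfr869 at -1.77, and the other 3 were called in neither arm.

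In MOR165, 5 of 7 were higher and 0 lower. The other 4 of these families held both directions. MOR171 was the most numerous, with 34 members, of which 15 were higher and 8 lower in both arms, with a median of 0.65. Olfr970 was its highest member at 3.26, and Olfr969 was lower by at least the folds given above. MOR162 had 7 higher and 1 lower of 10, the lower member being Olfr884. MOR170 had 5 higher and 1 lower of 9, with Olfr250 at -4.39 and Olfr251 at 2.41. MOR161 had 3 higher and 2 lower of 6, with Olfr875 at -2.44 and Olfr145 at 3.01.

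**Figure D3:**
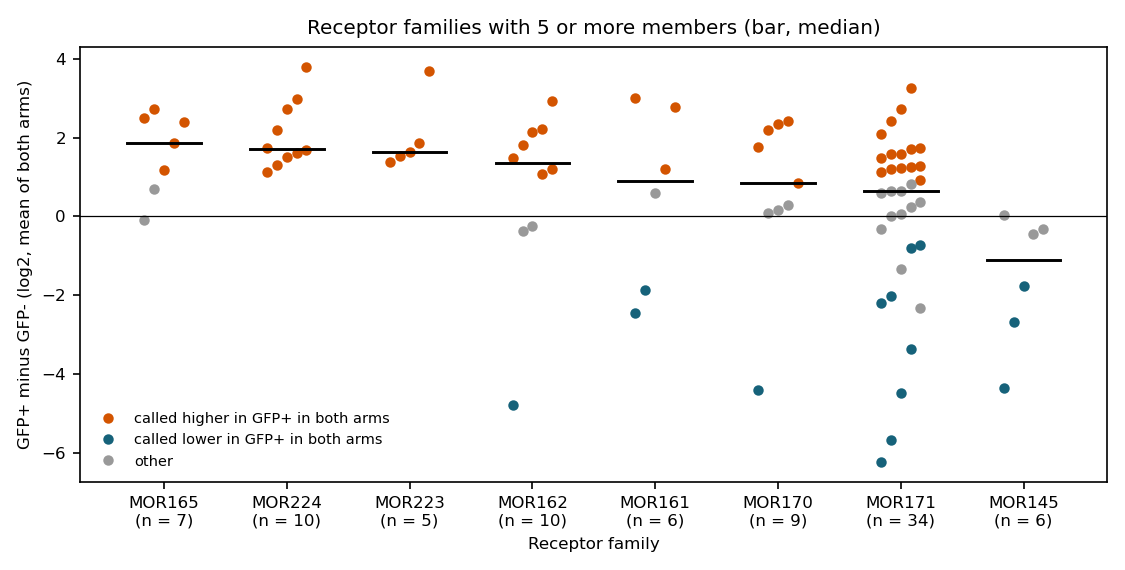
GFP+ minus GFP- log2 difference, mean of both arms, for the members of the 8 families with 5 or more members, ordered by median (bar). MOR224 and MOR223 lie wholly above 0, while MOR171 holds members on both sides of it. Fitted values are drawn also for receptors at background, whose folds are only bounded.

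In the RefSeq gene order the receptors stood in 2 runs, separated by a stretch of at least 5 genes of other kinds. The first run, Olfr24 to Olfr18, held 32 receptors in 14 families. Of these, 7 were higher in both arms (21.9%), 10 lower (31.2%) and 15 otherwise, with medians of -0.03 in odor and -0.15 in vehicle pools. The second run, Olfr874 to Olfr986, held 93 receptors in 14 other families. Of these, 55 were higher in both arms (59.1%), 14 lower (15.1%) and 24 otherwise, with medians of 1.25 and 1.20, or 1.25 and 1.12 with the bounds, which left the medians of the first run as they were. The difference between the runs was not tested. The first run had 15 of 32 receptors over background on all 16 arrays, and the second 52 of 93.

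Neighbours in the order could differ sharply. Over 123 neighbouring pairs the correlation of the fitted mean differences was -0.0266, given as a description since the pairs share receptors and arrays. In 59 pairs both receptors were called in both arms, and in 19 of these they were called in opposite directions, 11 of the 19 within a family. Olfr969, lower by the bounds above, stood between Olfr968 at 1.71 and Olfr970 at 3.26, all MOR171. Olfr970 had 9.03, 9.27, 9.50 and 8.96 in odor GFP+ samples, against 5.14 to 6.06 in odor GFP- samples, with no overlap. Of those odor GFP- arrays, 2 of 4 were over background. At the start of the second run, the MOR161 receptors Olfr874, Olfr875, Olfr876, Olfr877 and Olfr145 alternated between higher and lower calls. Olfr874, Olfr876 and Olfr145 were at 1.21, 2.78 and 3.01, and Olfr875 was at -2.44. Olfr877, called lower, had no GFP+ array over background and no fold is given. Olfr145 was followed by the depleted Olfr878. Receptors that share much sequence can share probe signal, which could not be checked without the probe letters.

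**Figure D4:**
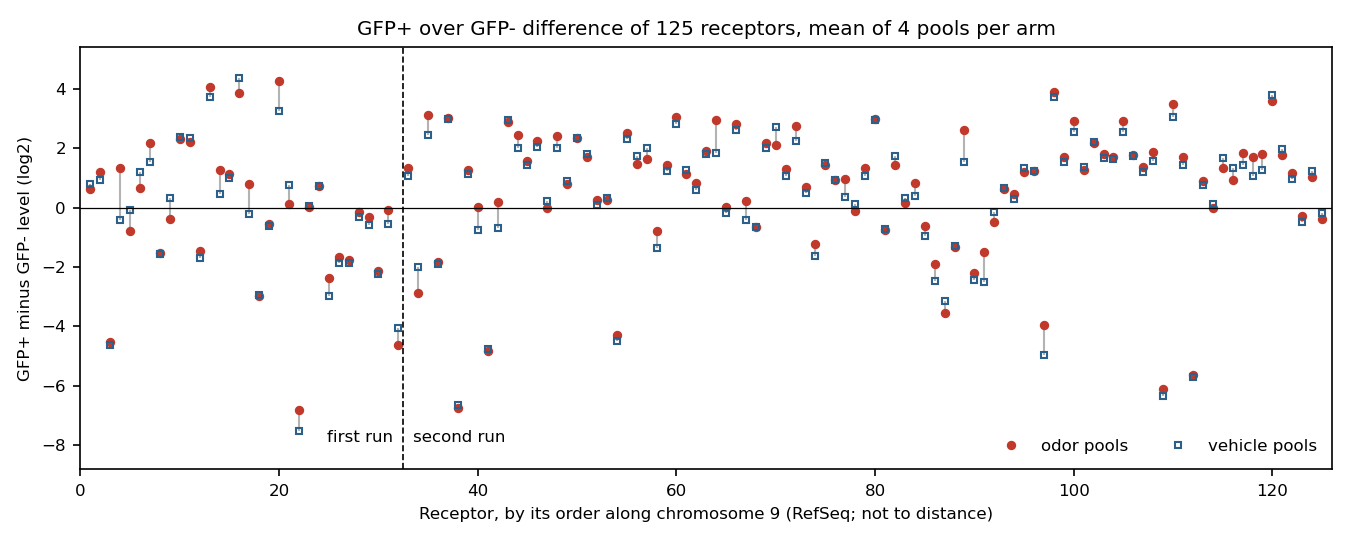
GFP+ minus GFP- log2 difference of the 125 receptors in their order along chromosome 9 (not to distance), odor pools as red circles and vehicle pools as blue squares joined by a line. Values are fitted, also where a fraction was at background. The arms lie close together, and depleted receptors such as Olfr829 in the first run and Olfr969 in the second stand beside enriched ones.

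The second comparison, the one the assay was built for, asked whether odor exposure changed the receptors. Of the 125 receptors, 0 were called when the GFP+ over GFP- difference of odor pools was set against that of vehicle pools. By limma, 8 had an unadjusted p under 0.05, all 8 positive, the lowest adjusted p was 1, and 0% of all genes were called. That count of 8 was 15 without odor pool 1 and 17 with the pool number as a block. The median of this difference was 0.14 over the 125 receptors, 0.06 over the other receptors and 0.01 over all genes, with a median SE of 0.35 per receptor. Of the 125 fitted values, 82 were positive. The median was 0.04 without odor pool 3, 0.07 without vehicle pool 4 and 0.03 without both pools numbered 3. No receptor had odor pools and vehicle pools apart without overlap, against 2.02% of all genes.

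Within GFP+ cells, 0 receptors were called for odor over vehicle, 7 had an unadjusted p under 0.05 by limma, all 7 positive, and 0% of all genes were called. The count of 7 was 19 without odor pool 1, 11 without odor pool 3, 13 without vehicle pool 1, 17 without vehicle pool 2 and 19 with the pool number as a block. The lowest adjusted p was 0.891, and 0.757 with the block. Of the 125, 93 were positive with a median of 0.17, against 0.04 over the other receptors and 0.00 over all genes. The receptors share arrays, so their common shift has no test here. The median was 0.11 without vehicle pool 3 and 0.09 without odor pool 4. Positive values were found for 25 of 32 receptors in the first of the runs above and 68 of 93 in the second. Within GFP- cells, 0 were called and 6 had an unadjusted p under 0.05, 3 higher and 3 lower. That count was 13 without odor pool 1, 13 without odor pool 3 and 12 with the block. The lowest adjusted p was 1, the median was -0.00 (0.11 without odor pool 3 and -0.13 without odor pool 4), and 0.00513% of all genes were called. The assay asks for a receptor to pass 3 criteria (a higher GFP+ over GFP- difference after odor, a higher GFP+ level after odor, and a higher level in GFP+ than in GFP- cells), and 0 receptors passed all 3.

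The receptors of smallest p are described without a call. Olfr830, of the MOR152 family, had 5.85, 5.75, 4.77 and 5.04 in odor GFP+ samples, against 4.21, 4.59, 4.55 and 4.00 in vehicle GFP+ samples. The arms did not overlap there, but only 1 of the 8 GFP+ arrays was over background. No fold is given for it, and the limma adjusted p for odor over vehicle in GFP+ cells was 0.891. Within pools, its GFP+ minus GFP- difference was 1.96, 1.48, 0.34 and 1.53 in odor pools, against -0.09, -1.26, 0.49 and -0.84 in vehicle pools. Vehicle pool 3 exceeded odor pool 3, so the arms overlapped (adjusted p = 1 for the odor effect on the difference).

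Olfr926, of the MOR171 family, had 5.64, 5.05, 4.80 and 5.38 in odor GFP+ samples, against 4.39, 4.30, 4.38 and 4.62 in vehicle GFP+ samples. The arms did not overlap, but no array of this receptor was over background. Olfr957, of the MOR171 family, had 5.37, 5.32, 5.89 and 5.95 in odor GFP+ samples, against 4.38, 5.15, 4.31 and 5.19 in vehicle GFP+ samples. These arms were also apart, with 1 of 8 arrays over background (adjusted p = 0.891). Olfr830, Olfr926 and Olfr957 were the 3 receptors of 125 whose GFP+ arms did not overlap, against 3.21% of all genes.

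Other receptors of small p were over background on every array. Olfr960, of the MOR224 family, had 7.89, 8.32, 8.30 and 8.53 in odor GFP+ samples, against 7.77, 7.51, 7.64 and 8.03 in vehicle GFP+ samples. It overlapped between arms there, at 0.53 ± 0.17 (adjusted p = 0.891). In GFP- cells it had 7.17, 6.87, 6.83 and 7.17 after odor, against 6.23, 6.46, 6.48 and 6.29 after vehicle, without overlap, at 0.65 ± 0.16 (adjusted p = 1). Olfr39, of the MOR144 family, had 8.49, 8.61, 9.37 and 8.85 in odor GFP+ samples, against 8.54, 8.16, 7.91 and 8.18 in vehicle GFP+ samples. The arms overlapped, at 0.63 ± 0.21 (adjusted p = 0.891).

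In GFP- cells, Olfr885 had 5.35, 5.07, 4.69 and 5.25 after odor, against 5.60, 5.43, 5.85 and 5.68 after vehicle, with 1 of 8 arrays over background (adjusted p = 1). Olfr955 had 4.37, 4.48, 4.77 and 4.69 after odor, against 4.24, 3.84, 3.88 and 4.30 after vehicle. Olfr885, Olfr955 and Olfr960 were the 3 receptors whose GFP- arms did not overlap, against 2.48% of all genes, and Olfr955 had no GFP- array over background. Olfr912 and Olfr1537 were also among the smallest p for the odor effect on the difference, at 1.11 ± 0.34 and 1.08 ± 0.37 (adjusted p = 1 for each), and both were over background on all 8 GFP+ arrays. Olfr1537 was also over background on all 8 GFP- arrays, but Olfr912 on 0 of 4 odor GFP- arrays and 1 of 4 vehicle GFP- arrays, so its value rests on levels at background.

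**Figure D5:**
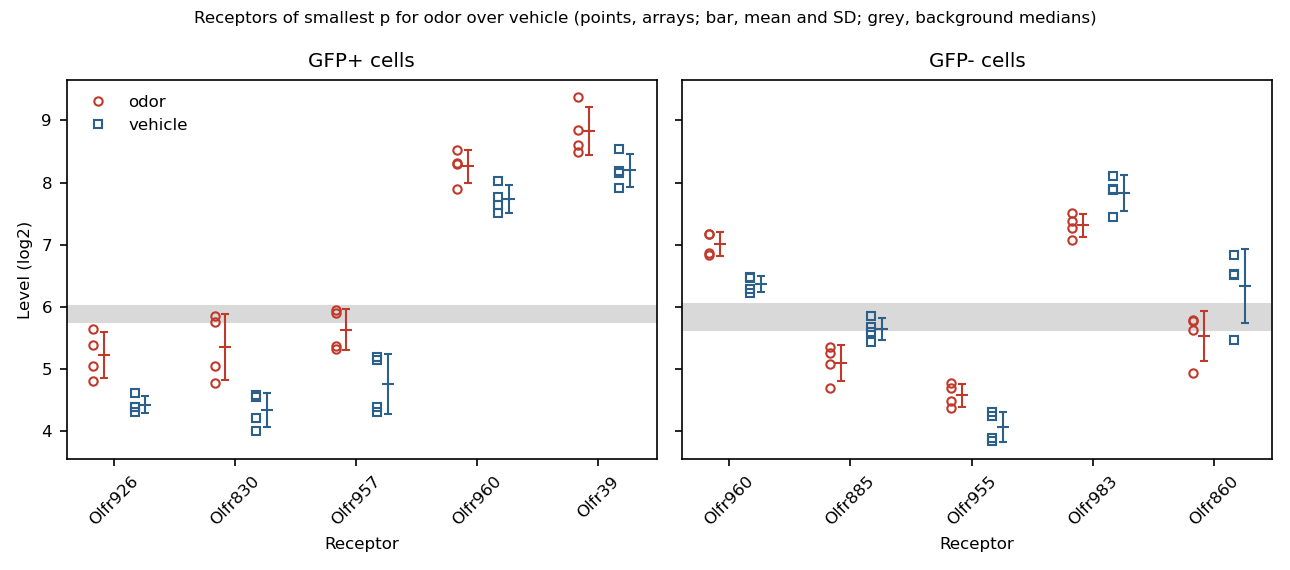
Log2 levels on each array for the 5 receptors of smallest p for odor over vehicle in GFP+ cells (left) and in GFP- cells (right), with odor as red circles, vehicle as blue squares, bars for mean and SD (n = 4), and a grey band for the background medians. Olfr926, Olfr830, Olfr957, Olfr885 and Olfr955 lie mostly within or below the band, and none of the receptors was called.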

How the data were processed

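RNA of 16 sorted samples from 8 pools of mice was measured on Affymetrix arrays. The deposited table holds the authors' values for 28846 probes, made with Affymetrix Expression Console per the submitters' processing notes. The sources used here do not give its version, background correction or normalization, and the log2 scale of the deposited values was inferred from their range. Probe symbols came from the platform annotation: 19572 probes had 1 symbol and 9274 none. For the 55 symbols with several probes the probe of highest mean was kept, which left 19505 genes. The number of arrays limits the precision.

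Groups came from the sample titles, which number 2 vehicle pools 3, so the pool coded V5 is called 4 here. Labels tie a GFP+ and a GFP- sample to each pool of 3 mice, and limma 3.58.1 in R 4.3.3 (lmFit and eBayes) was fitted to their differences, with 1 variance for both arms. Within a fraction, the main comparison of odor and vehicle samples was unpaired, and the pool number as a block was an alternative. Deviations of same-numbered odor and vehicle pools correlated at 0.114 to 0.242 in GFP+ samples, each over 0.1, which meets the limit set for pairing, and at 0.0664 to 0.332 in GFP- samples, which does not. The blocked values stand beside the odor tests. P-values were adjusted over 19505 genes and called under 0.05 (two-sided). Scripts were tested on simulated data.

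The rule for naming receptors took the 10 largest differences in each direction among those called in both arms. It also took the 5 of smallest p per odor test, the 5 highest and lowest levels per fraction and the extremes of each run. Some receptors that met it are not described above. Others outside it are named for their family, their place in the gene order or a call in a single arm. The pairs of highest protein identity in that rule were not used here. Members, lists and alternatives were chosen with earlier results of these data known, and receptors left out by the rule are not reported here.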

Additional observations from a re-analysis of the deposited data

Results flagged for a closer look

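In 11 of 164 groups of 4 arrays, from 41 named receptors, a single array stood farther from the other 3 than Dixon's critical value allows. Chance flags about 1 in 20 groups. Odor replicate 4 held 4 of the 11.

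In odor GFP+ samples, Olfr145 was at 10.81 in replicate 4, with the others at 9.82 to 9.96. Olfr981 was at 8.03 in replicate 1, against 9.73 to 10.05.

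In odor GFP- samples, replicate 4 was high for 3 receptors. Olfr18 was at 9.5 against 8.0 to 8.08, Olfr934 at 7.14 against 5.99 to 6.14, and Olfr936 at 5.16 against 3.54 to 3.8. Olfr936 was below background there.

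In vehicle GFP+ samples, replicate 2 of Olfr250 was at 6.11 against 8.21 to 8.32, and replicate 2 of Olfr912 at 8.57 against 6.92 to 7.19. Replicate 3 of Olfr945 was at 3.22 against 3.88 to 3.99, and replicate 4 of Olfr969 at 4.05 against 5.09 to 5.22. These last 2 receptors were below background there.

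In vehicle GFP- samples, Olfr834 was at 4.14 in replicate 1 against 3.21 to 3.32, below background, and Olfr905 at 6.67 in replicate 2 against 6.11 to 6.21.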

How the results depend on the processing

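Under 16 alternative settings, each count of called receptors stayed within 1.5 times its main value. The 55 results for named receptors kept their direction and their side of the threshold wherever the setting gave a value. Receptors were named in part for their large differences, so these 55 do not stand for all calls. Of the 91 receptors called in odor pools, 80 stayed called without odor pool 3. Of the 89 called in vehicle pools, 82 stayed called when all probes were tested. Leaving out each pool in turn gave 81 to 92 receptors called in odor pools and 83 to 91 in vehicle pools, and 0 in each odor test. Median centring gave 92 and 89 called receptors, gave medians over all genes of 0.34 in odor and 0.26 in vehicle pools where the deposited values gave 0.11 in each, and called 8224 and 5658 genes in place of 3620 and 3835. Quantile normalization gave 90 and 91, an intensity trend 92 and 91, all probes 84 and 82, and leaving out 8215 genes under background 84 and 86. Without the pairing within pools (no replicate block) 84 and 83 receptors were called, and with the pool number as a replicate block the odor tests still called 0, with 17 (difference), 19 (GFP+) and 12 (GFP-) receptors at an unadjusted p under 0.05, so the block changed no call. Without both pools numbered 3, an alternative chosen after seeing the data, 0 were called in each odor test. Levels near background, as for Olfr830 and Olfr926, limit what a difference can show.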

Other observations

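Some receptors varied widely between pools, and those given here were chosen after their values were seen. Olfr930, of the MOR171 family, had 10.38, 6.33, 6.34 and 10.81 in odor GFP+ samples, and 10.36, 6.34, 10.65 and 10.20 in vehicle GFP+ samples. Its 8 GFP+ values thus fell into 3 near 6.3 and 5 above 10, and both arms held both kinds. Its GFP- values were 8.25, 8.47, 8.15 and 9.50 in odor pools and 8.80, 9.08, 9.81 and 9.36 in vehicle pools, with no such gap. Its GFP+ minus GFP- difference was therefore positive in 5 pools and negative in 3, and it was not called in either arm.

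Olfr834 and Olfr862 had higher levels in the same vehicle GFP+ samples. Olfr834 had 8.10, 2.56, 3.10 and 4.86 there, and Olfr862 had 6.70, 3.04, 3.13 and 5.79. In odor GFP+ samples Olfr834 had 3.34 to 4.47 and Olfr862 had 2.62 to 4.59. Olfr834 was over background on 1 vehicle GFP+ array and Olfr862 on 2, and both on 0 odor GFP+ arrays, so most of these values lie at background. Olfr945 varied most in odor GFP- samples, at 7.29, 4.11, 3.43 and 9.50, while its vehicle GFP- samples had 5.44, 4.92, 6.88 and 7.54. In each arm, 2 of these GFP- arrays were over background.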
